A study of Sus scrofa with 12 samples.

Results

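The 10 genes of iron and heme handling followed here through pig heart tissue were HMOX1, HMOX2 and BLVRB, which take heme apart, FTL, FTH1 and NCOA4, which store iron and release it from store, TFRC and SLC11A1, which bring iron into the cytosol, and SLC40A1 and CP, which serve its export. They were chosen by name, 10 of the 35682 genes counted, and 9 of the 10 were matched to a gene identifier of the count files through a table that gave symbols to 15623 identifiers. FTH1 had no identifier in that table, so its expression was not analysed here.

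The tissue came from 6 female Yorkshire pigs, aged 10 to 12 weeks at the start, named here by their numbers 1022, 1322, 1323, 1623, 1922 and 3622. In every animal the left anterior descending coronary artery was occluded with a balloon for 60 minutes and then reperfused. All of them received tacrolimus, mycophenolate mofetil and prednisolone from day 9. On day 14 each heart was covered either with vascular organoids made of human endothelial progenitor cells and human mesenchymal stem cell-derived smooth muscle cells, fixed with fibrin glue, or with fibrin glue alone, and the heart was taken 4 weeks later. Each animal gave 1 library of the mid border zone, the muscle next to the infarct, and 1 of the mid remote zone, from the posterior wall. The labels do not give the treatment of an animal, so both treatments are mixed in each region and the only comparison made was border zone (n = 6) against remote zone (n = 6), which asks how these genes differ between muscle beside the scar and muscle far from it.

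Heme oxygenases open the heme ring and set free iron, carbon monoxide and biliverdin, which the biliverdin reductases BLVRA and BLVRB turn into bilirubin. HMOX1 is the inducible enzyme, raised by heme and oxidative stress and abundant in macrophages that digest red cells, while HMOX2 is made constantly. Freed iron is packed into ferritin, a shell of heavy (FTH1) and light (FTL) chains, which NCOA4 carries to the lysosome when iron is needed. Cells take up transferrin-bound iron through the receptor TFRC and export iron through ferroportin, encoded by SLC40A1, with the plasma ferroxidase ceruloplasmin (CP) oxidizing it on the way. SLC11A1 pumps divalent metals out of the phagosome of macrophages and neutrophils. In muscle after reperfusion, iron can come from myoglobin of dead cardiomyocytes and from red cells that leaked out.

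Iron sets much of this system after transcription, so the RNA levels below are only one layer of it. Iron regulatory proteins bind a short hairpin, the iron responsive element, in the 5′ untranslated region of ferritin and ferroportin RNA and hold back translation when iron is low. The hairpins are shown because they mark which members carry this switch. A search of 20648 RefSeq genes on Sscrofa11.1, the longest messenger RNA of each, for the loop CAGTG and 1 more base, with 5 bases on either side that pair with each other and an unpaired C 5 bases earlier, allowing G with T, on the transcribed strand only, found a match in the 5′ untranslated region of 0.266% of genes. Of the 10 genes, FTH1, FTL and SLC40A1 had a match, 1 each, all in the 5′ untranslated region. They lie at chr2:9535176-9535202 on the plus strand for FTH1, at chr6:54231195-54231221 on the plus strand for FTL and at chr15:94161661-94161687 on the minus strand for SLC40A1, each within 1 exon. Capitals mark the unpaired C and the loop.
FTH1: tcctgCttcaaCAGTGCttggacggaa
FTL: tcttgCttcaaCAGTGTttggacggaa
SLC40A1: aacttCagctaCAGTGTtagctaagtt
The stem letters of FTH1 and FTL were the same from the unpaired C to the loop, and those of SLC40A1 differed from both. No match was found in TFRC, whose 3′ untranslated region is the known site of such elements, but its RefSeq messenger RNA held only 53 bases after the stop codon, so that region was hardly searched.

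Some libraries stood apart from the rest in cell type markers, detected genes or mitochondrial share. Library totals ranged from 15130210 to 31618680 counts. The border zone library of animal 1022 had the lowest sum over 9 cardiomyocyte markers, 11480 CPM (read counts scaled to the TMM-normalized library size) against 54810 to 96200 in the remote zone, and the highest over 9 fibroblast and matrix markers, 66690 CPM against 1029 to 2575. Animal 3622 had 28024 detected genes in its border zone sample, the most of all 12. The 13 mitochondrial protein genes took 21.4% and 33.5% of the counts in the remote zone libraries of animals 1322 and 3622, against 13.6% to 14.7% in the other 4 remote zone libraries. Cardiomyocyte markers were abundant in all libraries, as heart tissue should show. Because these are pieces of tissue, fewer cells of a type and less RNA per cell cannot be told apart.

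None of the members passed the threshold between the regions, set at 0.05 for the p of edgeR's quasi-likelihood test adjusted across the 13844 genes in the fit, against a background of 2.07% of those genes (2.06% higher and 0.0144% lower in the border zone). SLC11A1 and CP had too few counts for the filter, so 7 of the 9 were tested. With the animal as a block the count was again 0 of 7 (background 0.296%, 0.289% higher and 0.00722% lower), and the Wald test of DESeq2, which set its own filter, called 3 members, HMOX1 and SLC11A1 higher and BLVRB lower (background 5.73%, 4.70% higher and 1.03% lower). The DESeq2 background is over 30085 genes with any count, many of them below the edgeR filter that 7 of the 9 members passed. At an unadjusted p under 0.05, 3 of the 7 passed, HMOX1 higher and HMOX2 and BLVRB lower, where 24.7% of all genes did, 17.0% higher and 7.78% lower. Over the 7 members the median log2 fold change was -0.0940 and 3 were above 0, while over all genes tested the median was 0.0378 and 53.3% were above 0.

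HMOX1 (ENSSSCG00000039745, on an unplaced scaffold) was the tested member with the largest log2 fold change. In the border zone it stood at 31.7 CPM in animal 1022, 18.3 in 1323, 6.80 in 1623, 5.62 in 3622, 3.74 in 1922 and 3.12 in 1322. Its remote zone levels lay between 2.7 and 5.38 CPM, with a median of 4.25. So 4 border zone libraries lay above every remote zone library, and those of 1922 and 1322 fell among them. Within animals, the border zone had more HMOX1 in 5 of 6, by 3.25 on the log2 scale in 1022 and 1.94 in 1323 but by 0.33 to 0.46 in 1623, 3622 and 1922, and it was lower in 1322, at -0.47. The fitted log2 fold change was 1.5 (SE 0.51, adjusted p = 0.112 by edgeR), and 0.99 with the animal as a block (adjusted p = 0.198 by edgeR). Without animal 1022 it was 0.81 (adjusted p = 0.364 by edgeR), and without only the border zone library of that animal 0.87 (adjusted p = 0.263 by edgeR). With library totals alone, which moved the median of all genes to 0.32 and called 11.2% of them, HMOX1 passed at 1.88 (adjusted p = 0.0474 by edgeR). The border zone levels spanned 10.2-fold and the remote zone levels 1.99-fold.

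HMOX2 (ENSSSCG00000007942, chr3:37829044-37868163 on the minus strand), the constant enzyme, had its lower level in the border zone sample of every animal, also in 1322, where HMOX1 was lower too. Its border zone levels were 32.7 CPM in 1022, 41.9 in 1323, 48.2 in 3622, 55.5 in 1623, 59.5 in 1922 and 77.2 in 1322, and its remote zone levels ran from 61.3 to 121.2 CPM with a median of 75.4. All border zone libraries except that of 1322 were below the whole remote zone range. The border zone level of HMOX2 was the lower one in 6 of 6 animals, the log2 differences lying between -1.10 and -0.21, a pattern that 1535 of the 13844 genes shared. The log2 fold change was -0.62 (SE 0.22, adjusted p = 0.12 by edgeR), and -0.63 with the block (SE 0.14, adjusted p = 0.0772 by edgeR), so the call was missed in both fits. With library totals alone it was -0.34 (adjusted p = 0.276 by edgeR).

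The counts of HMOX1 and HMOX2 in the same library give a ratio that no scaling between libraries can move. In the remote zone there were between 0.036 and 0.0768 counts of HMOX1 for each count of HMOX2. In the border zone the ratio was 0.97 in animal 1022, 0.435 in 1323, 0.122 in 1623, 0.117 in 3622, 0.0629 in 1922 and 0.0404 in 1322. In 6 of 6 animals the border zone had the higher ratio, and in 4 it exceeded the whole remote zone range. The genes differ in length, so the ratio says how the balance shifted between libraries and not how many molecules of each were present.

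BLVRB (ENSSSCG00000021067, chr6:48715540-48728433 on the minus strand), which makes bilirubin from biliverdin and reduces flavins, had the lowest unadjusted p of the 7 tested members in the fit with region as the only term. The 6 border zone libraries lay close together, from 10.1 CPM in 1623 to 13.5 in 1322, with a median of 11.6. The remote zone libraries ran from 12.6 to 22.9 CPM with a median of 15.7, and 4 border zone libraries were under all of them. BLVRB was the lower in the border zone sample of 6 of 6 animals, least in 1022 at -0.08 and most in 3622 at -0.97 on the log2 scale. The fit gave -0.52 (SE 0.17, adjusted p = 0.0982 by edgeR). Scaled by library totals alone it was lower in 5 of 6 animals, the exception being 1022, and the log2 fold change was -0.19 (adjusted p = 0.447 by edgeR). BLVRA, the other biliverdin reductase, had a log2 fold change of -0.29 (SE 0.18, adjusted p = 0.315 by edgeR).

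**Figure D1:**
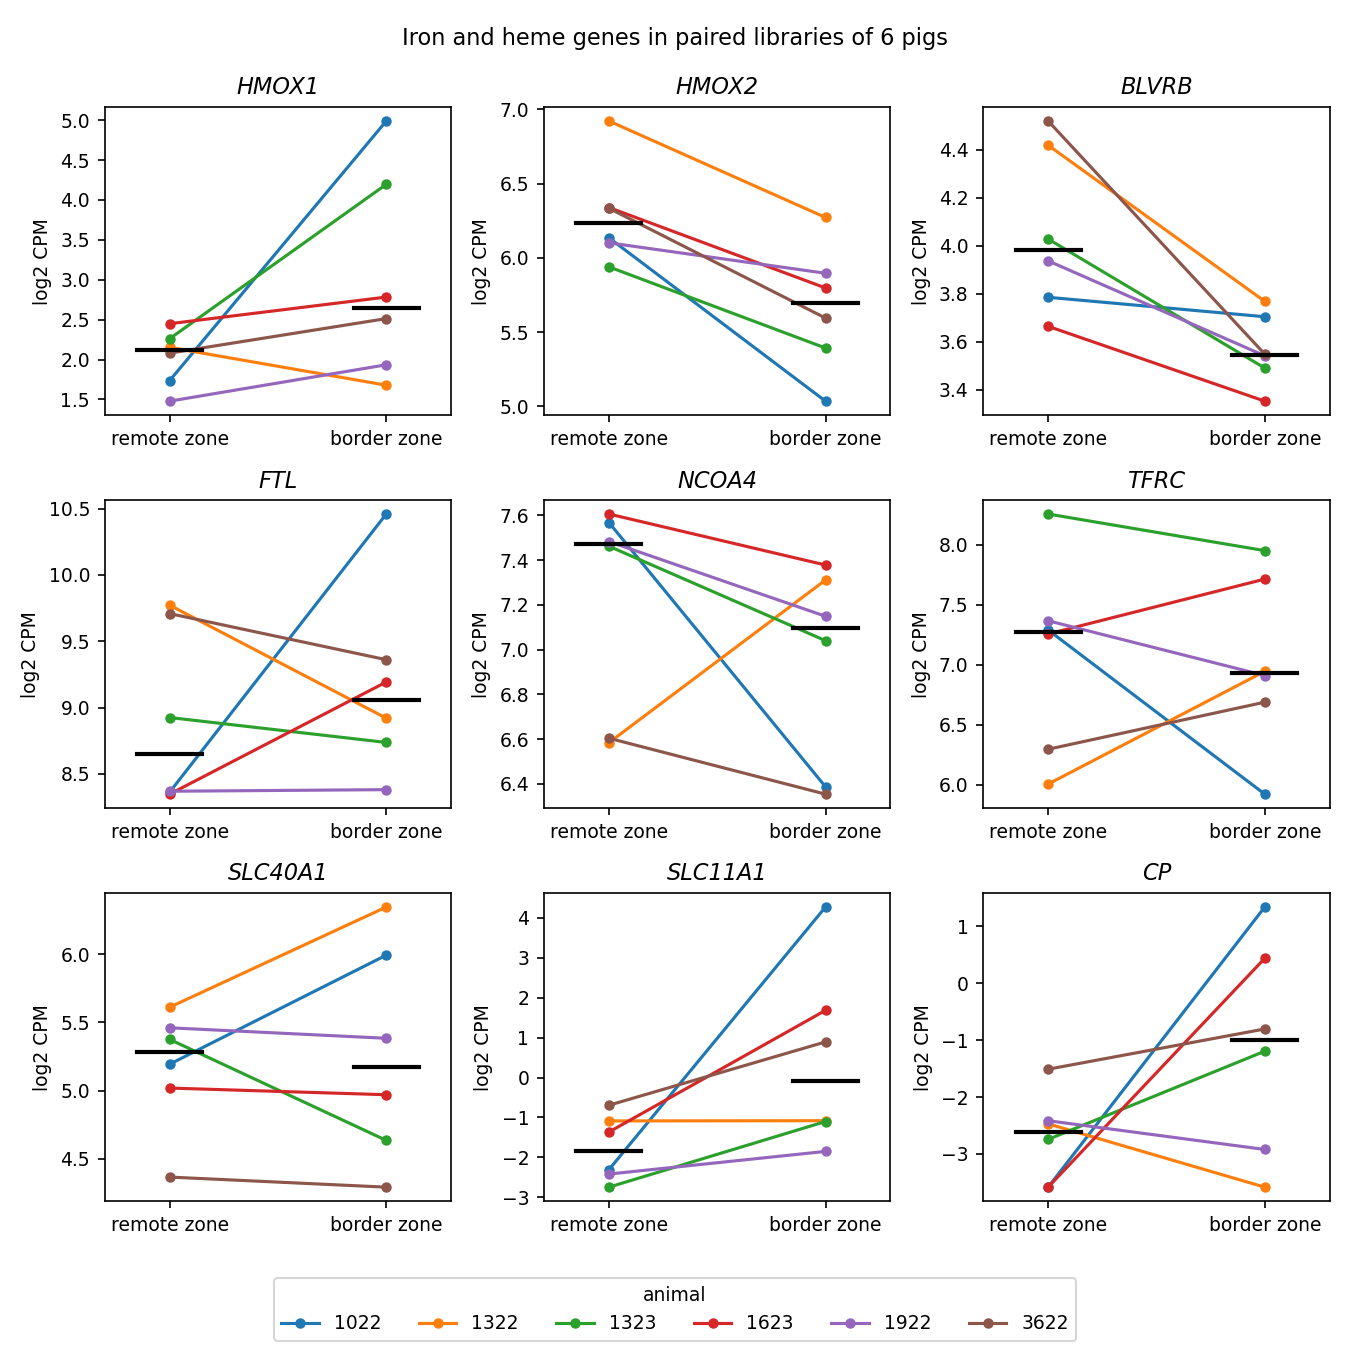
Expression (log2 CPM, vertical axis, a separate scale in each panel) of the 9 measured members in the remote zone and border zone library of each of 6 pigs, joined by a line per animal, with black bars at the median of a region (n = 6). The lines of HMOX2 and BLVRB slope down in all 6 animals, those of HMOX1 slope up most in 1022 and 1323, and the lines of FTL, TFRC and SLC40A1 crossed.

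FTL (ENSSSCG00000003153, chr6:54231121-54232756 on the plus strand), the ferritin light chain, was the most abundant member. Its border zone levels were 1407 CPM in 1022, 657.4 in 3622, 585.2 in 1623, 484.2 in 1322, 426.6 in 1323 and 333.2 in 1922. The remote zone libraries of 1322 and 3622 held 874.5 and 836.9 CPM, and the other 4 between 325.5 and 485.8. Each region therefore had its own high libraries, and the border zone had more FTL in 3 of 6 animals after TMM scaling, by 2.10 on the log2 scale in 1022, but in 5 of 6 with library totals alone (log2 fold change 0.73, adjusted p = 0.218 by edgeR). The log2 fold change of 0.29 (SE 0.38, adjusted p = 0.672 by edgeR) was smaller than its error. It turned to -0.21 without animal 1022 and to -0.10 without the border zone library of that animal (adjusted p = 0.807 and 0.917 by edgeR).

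NCOA4 (ENSSSCG00000010399, chr14:90505614-90531302 on the minus strand), the receptor that delivers ferritin for breakdown, was between 81.7 and 166.2 CPM in the border zone (median 136.7) and between 95.9 and 194.7 CPM in the remote zone (median 177.5). In animal 1322 the border zone was 0.73 higher on the log2 scale, and in the other 5 it was the lower region, most so in 1022, at -1.18. Its log2 fold change was -0.29 (SE 0.25, adjusted p = 0.499 by edgeR). It was -0.13 without animal 1022, -0.47 without 1322, -0.19 without the border zone library of 3622 and -0.20 without that of 1022, and -0.07 with library totals alone, with no adjusted p under 0.246 by edgeR among these. Per count of NCOA4 there were 16.8 counts of FTL in the border zone library of 1022, against 2.35 to 8.04 in the other border zone libraries and 1.67 to 9.12 in the remote zone.

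TFRC (ENSSSCG00000011848, chr13:133976765-133997554 on the plus strand), the transferrin receptor, had the widest remote zone range of the 7 tested members, 4.76-fold, with no common direction between the regions. It stood at 247.1 CPM in the border zone of 1323, 209.8 in 1623, 123.2 in 1322, 120.2 in 1922, 103.1 in 3622 and 60.5 in 1022, and at 64.2 to 305.3 CPM in remote zone tissue. Animal 1323 was the highest in both regions. The border zone was the higher region in 3 of 6 animals. Fitted over all animals, it differed by -0.09 on the log2 scale (SE 0.39, adjusted p = 0.907 by edgeR). It was above 0 without animal 1022 and with library totals, never past the threshold.

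SLC11A1 (ENSSSCG00000039798, chr15:120434100-120446396 on the plus strand), the phagosomal metal transporter, was nearly silent in the remote zone, with 2 to 8 counts per library. In the border zone it had 581 counts in 1022, 91 in 1623, 29 in 3622, 13 in 1323, 8 in 1322 and 4 in 1922, which is 19.2, 3.13, 1.77, 0.383, 0.390 and 0.194 CPM. Thus 3 border zone libraries stood above the remote zone maximum of 0.535 CPM and the other 3 lay within the remote zone range. The library of 1022 held 76.6% of the summed border zone CPM. SLC11A1 was below the filter of the main fit. The Wald test of DESeq2 gave a log2 fold change of 4.0 (SE 0.94, adjusted p = 0.00137), and edgeR without the filter 4.01 (SE 1.16, adjusted p = 0.135). These fits differ in test, scaling and filter at once.

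SLC40A1 (ENSSSCG00000027157, chr15:94140635-94161793 on the minus strand), the iron exporter ferroportin, was highest in the border zone library of 1322, at 81.3 CPM, where HMOX1 was lowest among the border zone libraries, and then stood at 63.6 in 1022, 41.7 in 1922, 31.3 in 1623, 24.8 in 1323 and 19.5 in 3622. The remote zone ran from 20.5 to 48.8 CPM with a median of 39.0. The border zone was the higher region in 1022 and 1322, by 0.80 and 0.74 on the log2 scale, and the lower in 1323, by -0.74, while the other 3 animals differed by less than 0.10. With library totals alone the border zone was the higher in 5 of 6. The log2 fold change was 0.23 (SE 0.33, adjusted p = 0.701 by edgeR), and 0.10 with the block (SE 0.21, adjusted p = 0.766 by edgeR). It was 0.04 without animal 1322 and 0.09 without the border zone library of 1022 (adjusted p = 0.941 and 0.937 by edgeR).

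CP (ENSSSCG00000011700, chr13:89396713-89463540 on the minus strand), the ferroxidase ceruloplasmin, was close to the limit of detection. The border zone libraries had 74 counts in 1022, 37 in 1623, 12 in 1323, 8 in 3622, 1 in 1922 and 0 in 1322, and the remote zone libraries 0 to 4. The 4 border zone libraries with the most CP were above all remote zone libraries in CPM. With so few counts the size of the difference was not estimated from single libraries, and neither edgeR nor DESeq2 called CP (adjusted p = 0.174 without the filter by edgeR and 0.0614 by DESeq2).

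**Figure D2:**
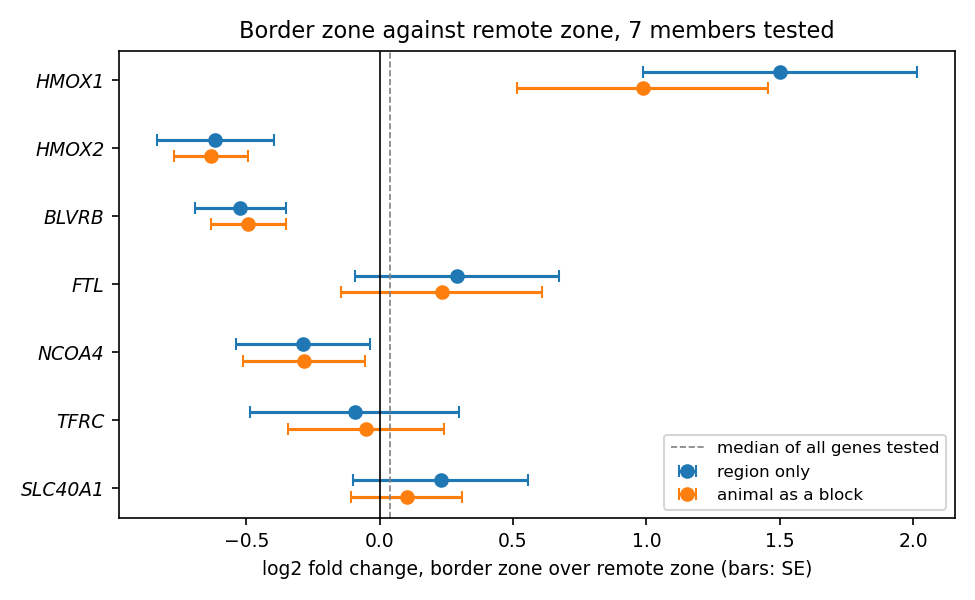
Log2 fold change of border zone over remote zone (horizontal axis) for the 7 members tested by edgeR, with region as the only term (blue) or the animal as a block (orange), 6 libraries a region. Bars are standard errors, and the dashed line is the median of all genes tested, 0.0378. HMOX1 lay to the right at 1.5 and 0.99, HMOX2 and BLVRB to the left, and the bars of FTL, TFRC and SLC40A1 crossed 0.

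To compare the members with each other, CPM was divided by the exon length of the RefSeq models in kilobases. The order of the medians was the same in both regions: FTL, TFRC, NCOA4, BLVRB, SLC40A1, HMOX2, HMOX1, SLC11A1 and CP. The median of FTL was 572.5 CPM per kilobase in the border zone and 437.0 in the remote zone, that of TFRC, the next, 51.1 and 64.9, and that of HMOX1 4.01 and 2.75. FTL was apart from TFRC in both regions, with no overlap of their ranges. TFRC and NCOA4 overlapped in range, although TFRC was the higher in 6 of 6 libraries of each region. NCOA4 and BLVRB overlapped in both regions, and so did SLC40A1 and HMOX2, so the order within these pairs was not settled, nor was that of BLVRB and SLC40A1 in the border zone, where BLVRB was the higher in 4 of 6 libraries. HMOX2 was above HMOX1 in 6 of 6 remote zone libraries but in 4 of 6 border zone libraries, those of 1022 and 1323 being the exceptions. The RefSeq models of TFRC and HMOX2 differ widely in the length after the stop codon, 53 against 5048 bases, which moves levels per kilobase.

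The remote zone libraries of animals 1322 and 3622, which had the highest mitochondrial shares, were also set apart in several members. Their sums over the cardiomyocyte markers, 85700 and 96200 CPM, were likewise above those of the other 4 remote zone libraries, 54810 to 64140 CPM. FTL, BLVRB and SLC11A1 were higher in both than in any of the other 4 remote zone libraries, at 21.3 and 22.9 CPM against 12.6 to 16.2 for BLVRB. With library totals alone this held for FTL but not for BLVRB or SLC11A1, and SLC11A1 had 8 counts in each of these libraries and also in that of 1623. TFRC and NCOA4 were lower in both, at 64.2 and 78.5 CPM against 152.7 to 305.3 for TFRC and at 95.9 and 97.2 against 176.2 to 194.7 for NCOA4. In a fit without these 2 libraries, chosen after the data were seen, the log2 fold change of BLVRB was -0.30 (adjusted p = 0.259 by edgeR), that of HMOX2 -0.43, and those of NCOA4 and TFRC -0.55 and -0.45. FTL moved most, from 0.29 to 0.80 (adjusted p = 0.256 by edgeR), while HMOX1 stayed at 1.51. No gene of any kind passed in that fit, where 2895 genes had an unadjusted p under 0.05, so it says nothing on calls. The part of the mitochondrial share and of the cardiomyocyte content in these results was not tested.

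Markers of macrophages, which carry HMOX1, SLC11A1 and ferritin, were set beside these members. Of the 15 macrophage markers 13 were tested, all 13 with a log2 fold change above 0 and with a median of 1.46. None passed the adjusted threshold by edgeR, all 13 had an unadjusted p under 0.05, 8 with the animal as a block, and DESeq2 called 5. Summed over the 14 matched markers, the level was 1666 CPM in the border zone library of 1022, 416.7 in 1623, 348.3 in 3622, 309.0 in 1323, 184.0 in 1922 and 148.5 in 1322. Its remote zone range was 132.6 to 282.4 CPM. The 4 libraries above that range were the same 4 in which HMOX1 and CP were above theirs. Among these, SLC11A1 had the same order as the marker sum, whereas HMOX1 was second highest in 1323, where SLC11A1 stayed at 0.383 CPM. SLC40A1 was highest in the border zone library of 1322, the one with the lowest sum in that region, and next highest in that of 1022, with the highest sum. FTL was highest in the border zone libraries of 1022, 3622 and 1623, which had the 3 highest sums. Its 2 high remote zone libraries differed in the sum: 175.5 in 1322 with FTL at 874.5 CPM, and 282.4, the remote zone maximum, in 3622 with FTL at 836.9 CPM. No matched macrophage marker was at 0 in all libraries. Fibroblast and matrix markers differed more, with 8 of 9 past the threshold by edgeR (1 with the animal as a block), a median log2 fold change of 2.98 and a higher sum in 6 of 6 animals, from 3021 CPM in 1322 to 66690 in 1022 against 1029 to 2575 CPM in remote tissue. The part of these cells and of macrophages in these results was not tested. Red cell markers did not separate the regions, with 5 matched genes that summed to 3.41 to 14.8 CPM in the border zone and 3.02 to 24.9 CPM in the remote zone, and the 5 neutrophil markers summed to at most 8.86 CPM in any library. In border tissue that sum was 8.86 in 1022, 4.02 in 1623, 3.55 in 3622 and 2.44 in 1322, above the remote zone maximum of 2.38 CPM, and the first 3 of these are the libraries in which SLC11A1 was above its remote zone range. Much of the highest sum was 1 gene, CSF3R, which reached 7.40 CPM in border tissue and had a log2 fold change of 2.39 (SE 0.71, adjusted p = 0.081 by edgeR). ELANE, the other neutrophil marker tested, had -0.12 (adjusted p = 0.891 by edgeR). S100A8, S100A12 and MPO had at most 8, 6 and 1 counts in any library. The part of neutrophils was not tested. The 8 endothelial markers summed to 347.4 to 515.9 CPM in border tissue and 253.2 to 578.5 CPM in remote tissue, and the 7 smooth muscle and pericyte markers to 7931 to 16940 and 8192 to 12510 CPM. The latter sum was mostly DES, which cardiomyocytes also make. Gene by gene, 6 of the 7 were above 0 with a median log2 fold change of 1.13, 5 had an unadjusted p under 0.05, 0 passed the adjusted threshold by edgeR and DESeq2 called 3. The 9 cardiomyocyte markers had a lower sum in the border zone of 6 of 6 animals (medians 47090 and 61910 CPM), as did HMOX2 and BLVRB in level. In border tissue the sum was lowest in 1022 (11480 CPM) and highest in 1322 (65120 CPM), as HMOX2 was. BLVRB was highest in 1322 but lowest in 1623. The part of cardiomyocytes was not tested.

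**Figure D3:**
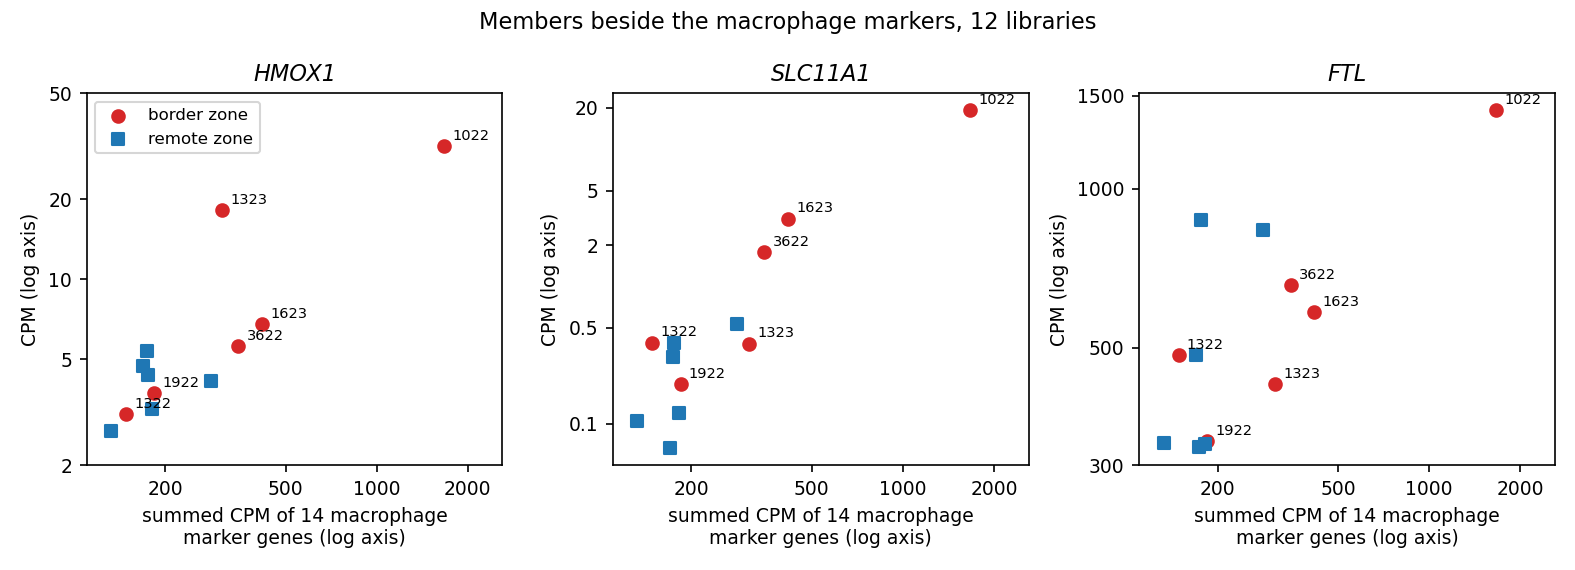
CPM (vertical log axis) of HMOX1, SLC11A1 and FTL against the summed CPM of 14 macrophage markers (horizontal log axis) in 6 border zone libraries (red circles, with the animal number) and 6 remote zone libraries (blue squares). The border zone library of animal 1022 is at the upper right of each panel, at 1666 CPM of markers. That of 1323 is the next highest for HMOX1, at 18.3 CPM, but not for SLC11A1.

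Of 69 other genes of the pathway, written down by role, 66 had an identifier and 58 were tested. By edgeR, CYBRD1 alone passed, with a higher level in the border zone, 1 of 58 (background 2.07%), and with the animal as a block none passed. At an unadjusted p under 0.05 there were 14 of 58, or 24.1%, next to 24.7% of all genes. DESeq2 called 9 of the 65 genes with any count, or 13.8%, 6 higher and 3 lower, next to 5.73% of all genes with any count. These 30085 genes include many below the filter of the main fit, which kept 13844. Of the 65 pathway genes 58 passed that filter, so the 2 shares are not alike and show no excess. The median log2 fold change of the 58 was -0.18.

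CYBRD1, a membrane ferric reductase that prepares iron for uptake, was the 1 pathway gene that rose in the border zone. It was at 18.4 to 183.1 CPM in the border zone with a median of 36.7, and at 11.5 to 17.2 CPM in remote tissue, so the regions did not overlap, which held for 1.99% of all genes tested in this direction (0.701% in the other). Its log2 fold change was 2.05 (SE 0.47, adjusted p = 0.0421 by edgeR), and 1.55 with the block (SE 0.42, adjusted p = 0.0837 by edgeR). Without animal 1022 it was 1.2 and still past the threshold (adjusted p = 0.0174 by edgeR). It kept a log2 fold change of 2.09 to 2.25 but was not called without animal 1323, 1623, 1922 or 3622, fits in which at most 15 genes of any kind passed. Without the border zone library of 3622 alone it was 2.19 (adjusted p = 0.0511 by edgeR). Among the other 8 tested genes of iron uptake and reduction, LCN2, an iron-siderophore binding protein of innate immunity, had 0.94 (SE 0.28, adjusted p = 0.0795 by edgeR), and the list median was -0.08.

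Among 7 tested genes of heme uptake and transport, FLVCR2, a transporter of the heme exporter family, was 2.22 higher on the log2 scale in the fit and higher in 6 of 6 animals, as were 11.7% of all genes tested, and it was just short of the threshold (SE 0.55, adjusted p = 0.0509 by edgeR). CD163, the macrophage scavenger receptor for hemoglobin bound to haptoglobin, was at 91.3 CPM in the border zone library of 1022, with a border zone median of 14.2 and a remote zone range of 5.11 to 11.4 CPM. Its log2 fold change was 1.73 (SE 0.58, adjusted p = 0.108 by edgeR). The list median was -0.33, since 4 of the 7 were below 0.

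Of 5 tested genes of iron export and the hepcidin system, HJV, the hemojuvelin co-receptor of BMP signalling that is made in striated muscle, was lower in the border zone of 6 of 6 animals. It was at 0.463 to 15.3 CPM there and at 8.96 to 30.0 CPM in the remote zone, with a log2 fold change of -1.80 (SE 0.56, adjusted p = 0.0892 by edgeR). BMP2, a ligand of that pathway, had 1.38 (SE 0.46, adjusted p = 0.105 by edgeR). Of the 6 genes of iron sensing and chaperones, HERC2 and PCBP2 had the lowest unadjusted p, and their log2 fold changes were 0.33 and -0.20. ACO1 and IREB2, which encode the iron regulatory proteins that bind the hairpins shown above, had 0.22 and -0.18 (adjusted p = 0.523 and 0.502 by edgeR).

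Heme synthesis and the mitochondrial use of iron had mostly small values below 0, whereas 53.3% of all genes tested were above 0. All 7 tested genes of mitochondrial iron and iron-sulfur clusters were below 0, with a median log2 fold change of -0.33, led by ISCU, the cluster scaffold, at -0.56 (SE 0.21, adjusted p = 0.125 by edgeR) and GLRX5 at -0.69 (SE 0.28, adjusted p = 0.158 by edgeR). Of the 9 genes of heme synthesis, 8 were below 0, with a median of -0.35. ALAS1, the rate-limiting enzyme outside the red cell lineage, had -0.51 and UROS -0.55 (adjusted p = 0.267 and 0.223 by edgeR). None of these 16 genes passed by edgeR, and 2 had an unadjusted p under 0.05 with region as the only term, both mitochondrial, of which DESeq2 called ISCU. With the animal as a block, 4 of the 7 mitochondrial and 3 of the 9 heme synthesis genes had an unadjusted p under 0.05 by edgeR. That held for 4069 of all 13844 genes, and none of the 16 passed the adjusted threshold. The 9 cardiomyocyte markers were also all below 0, with a median of -0.51, and their part in these values was not tested.

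NRF2, encoded by NFE2L2, and its rival BACH1 control HMOX1 and the ferritin genes, and their other targets were listed beside them. Of the 14 genes tested, 11 (78.6%) were above 0, next to 53.3% of all genes tested, and the median log2 fold change was 0.25. At an unadjusted p under 0.05 by edgeR there were 2 higher and 2 lower, or 28.6%, next to 24.7% of all genes. With the animal as a block there were 7, next to 4069 of the 13844 genes. NQO1, another target of NRF2, had -0.31 (SE 0.17, adjusted p = 0.281 by edgeR) and was higher in the border zone of only 1 animal. SRXN1, which repairs oxidized peroxiredoxins, was higher in 6 of 6 animals, at 5.49 to 21.0 CPM in the border zone and 4.68 to 12.4 CPM in the remote zone, with 1.05 (SE 0.32, adjusted p = 0.0824 by edgeR). NFE2L2 and BACH1 had 0.07 and 0.42, and GPX4, the enzyme that clears lipid peroxides, was lower in 6 of 6 animals, with -0.58 (SE 0.24, adjusted p = 0.162 by edgeR). None of the genes of this list passed by edgeR, and DESeq2 called SRXN1 among them.

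**Figure D4:**
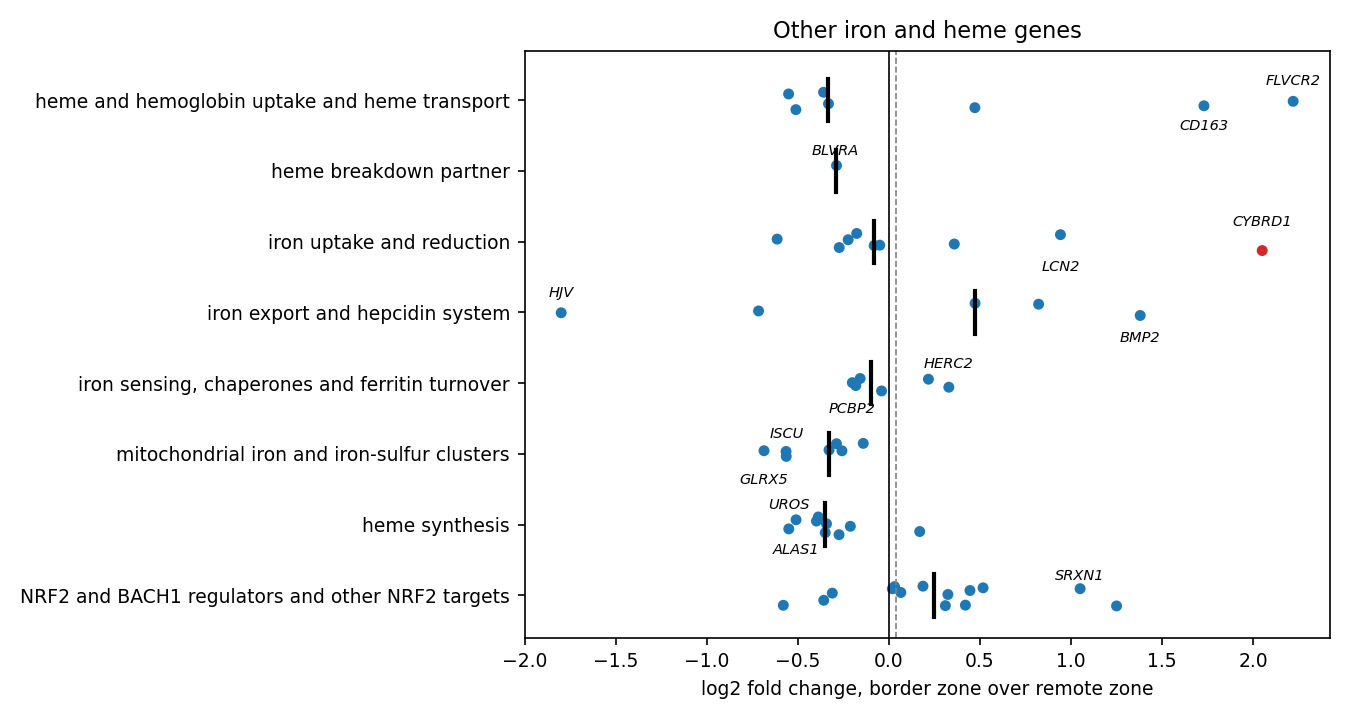
Log2 fold change of border zone over remote zone (horizontal axis) for 58 other genes of iron and heme handling, 1 point per gene, grouped by role. Short bars are list medians, the dashed line is the median of all genes tested, red marks an adjusted p under 0.05, reached only by CYBRD1, and 1 or 2 genes with the lowest p are named in each list. All mitochondrial iron genes lie left of 0, and 11 of 14 genes of the NRF2 list lie right of it, as do 53.3% of all genes tested.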

How the data were processed

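Poly(A)-enriched, nondirectional libraries were sequenced as paired ends. The authors aligned reads with STAR to Sscrofa11.1 and Ensembl genes and counted them with featureCounts. The deposited values are raw read counts per gene without normalization, 1 file per library. The handling of reads that match several places is not given in the sources used here, so FTL, a gene with many processed copies in mammalian genomes, is uncertain, and antisense overlaps cannot be told apart.

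Genes were kept by filterByExpr (13844 of 35682) and scaled by TMM. Border zone and remote zone were compared with the quasi-likelihood test of edgeR 4.0.16 in R 4.3.3 (robust, region as the only term, Benjamini-Hochberg adjustment over all genes). Standard errors were derived from the fold change and the F statistic. Log2 CPM used a prior count of 2. Alternatives were the animal as a block, DESeq2 1.42.0, other scalings and filters, no mitochondrial genes, and libraries left out. Libraries of a number come from 1 animal, which pairs them. Their deviations from the region means correlated with a mean r of 0.345 across genes, over 0.1 in 4 of 6 pairs. Tables and figures used Python 3.11.15. On simulated counts for this comparison (13667 genes), edgeR recovered 79.8% of 94 genes changed 4-fold and 38.8% of 98 changed 2-fold.

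Gene lengths, positions and hairpins came from the RefSeq genome and annotation of Sscrofa11.1, the build of the files, whereas the counts used Ensembl models. The members, the pathway and marker lists and the tests were chosen with earlier results of these data known. Genes named were the 10 members, pathway list genes past the threshold, up to 2 genes with the lowest p per pathway list, and the 2 genes most like each member; 1 pathway gene that met this rule is not reported here. Other list genes (ACO1, IREB2, NFE2L2, BACH1, GPX4, NQO1 and the low-count genes) and single cell type markers were named after their values were seen. Counting errors do not separate PCR copies from molecules. In fits without the block a p-value rests on the spread between libraries of a region, with the pairing left out. With the block it rests on the spread of the differences within animals. The treatments are mixed in both.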

Additional observations from a re-analysis of the deposited data

How the results depend on the processing

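No member passed the threshold with region as the only term, with the replicate block, with DESeq2 size factors in edgeR, with no filter, with at least 10 counts in every library, without mitochondrial genes, with each animal left out, without the border zone library of 1022 or 3622, or without the remote zone libraries of 1322 and 3622. No gene of any kind passed without animal 1623, without animal 3622 or without those 2 remote zone libraries, and 3 and 15 passed without 1323 and 1922, so these fits say nothing on stability. DESeq2's Wald test called 3 members and library totals 1, HMOX1 (1.88, adjusted p = 0.0474 by edgeR). Library totals moved the median of all genes from 0.0378 to 0.317, so that HMOX1 remained above it and TFRC (0.12) below it. Of the 112 alternative fold changes of the 7 tested members, 104 changed neither sign nor call, 3 became significant and 5 reversed. The 104 include the fits in which at most 15 genes of any kind passed, where an unchanged call carries no weight. The reversals were FTL without replicate 1022 (-0.21) or without its border zone library (-0.10), and TFRC with library totals (0.125), without replicate 1022 (0.0661) or without its border zone library (0.0598). With each animal left out in turn, FTL ranged from -0.209 to 0.527 and TFRC from -0.229 to 0.0661. All 18 median CPM values moved by less than 1 SD with library totals.

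Of the other pathway genes, 1 was called, and 0 with the replicate block, with DESeq2 size factors, with no filter, with at least 10 counts in every library or without the remote zone libraries of animals 1322 and 3622. DESeq2's Wald test called 9 (13.8%, next to 5.73% of all genes with any count, a share that includes genes below the filter). Library totals called 7 (12.1%, all genes 11.2%). With an animal or a border zone library left out, the count ranged from 0 to 3, the 3 without animal 1322 being CYBRD1, FLVCR2 and HJV. The block changed the call of CYBRD1 and of no other named gene. Except for fewer samples, the cause was not tested. SLC11A1 and CP, with at most 8 counts in the remote zone, are limited by depth.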

Other observations

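Several pathway genes had too few counts to be tested. HAMP, the hormone hepcidin, had at most 4 counts in any library, LTF, the iron-binding lactoferrin of neutrophils, at most 7, and FTMT, mitochondrial ferritin, 0 counts in all 12 libraries. TF, encoding transferrin, had at most 66 counts, in the border zone library of animal 1022. HEPHL1, a ferroxidase related to hephaestin, had 41 counts in the border zone library of 1022 and 0 in all remote zone libraries.

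For each tested member, the genes with the closest profile over the 12 libraries were listed among 11726 genes with a symbol, by Pearson's r of log2 CPM. Each is the highest of many values over paired libraries, so no p was computed. For NCOA4 the closest were the ubiquitin ligase gene WWP1 (r = 0.986) and SLC11A2 (r = 0.979), which encodes the iron transporter DMT1. SLC11A2 had a log2 fold change of -0.22 between the regions (adjusted p = 0.498 by edgeR). For HMOX1 they were PFKFB3, a regulator of glycolysis (r = 0.949), and TMEM151B (r = 0.943). For FTL they were GPSM3 (r = 0.950) and LMO2 (r = 0.946). For HMOX2 they were SMIM19 (r = 0.984) and PRMT7 (r = 0.971), for TFRC CARNMT1 (r = 0.976) and SPAST (r = 0.970), and for BLVRB PDAP1 (r = 0.938) and ATOH8 (r = 0.927). SLC40A1 had the loosest likeness, with GLB1, the lysosomal beta-galactosidase gene, at r = 0.826 and FAM83H at r = 0.822.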
